A study of Mus musculus with 9 samples.

Results

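Nuclear receptors are transcription factors that bind small lipid-soluble ligands and, in the liver, set the rates of bile acid, sterol, fatty acid and drug metabolism. The 9 genes described here belong to linked circuits. Nr1h4 encodes FXR, the bile acid receptor, which induces Nr0b2. Nr0b2 encodes SHP, a receptor without a DNA-binding domain that represses other receptors, among them LRH-1, the product of Nr5a2 and an activator of bile acid synthesis genes. Nr1h3 encodes LXR-alpha, the oxysterol receptor, Nr1i2 and Nr1i3 encode PXR and CAR, the sensors of drugs and other foreign compounds, and Ppara encodes the fatty acid receptor of the fasting response. Rxra encodes the partner with which FXR, LXR, PXR, CAR and PPAR-alpha pair on DNA, and Rora encodes a receptor that binds DNA alone and drives clock genes such as Arntl. They were taken by gene symbol from the deposited count table and normalised table, and each symbol matched a single row: 9 genes of the 42188 in the tables, all of which were among the 14603 genes that passed the filter on low counts.

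RNA was sequenced from whole mouse liver in 3 groups of 3 libraries, labelled WT C57BL/6 males and, in the husbandry text, C57BL/6J mice 8 weeks old and weighing 20 to 25 g. MSA_ConA mice were given MSA, an abbreviation that the labels leave unexpanded beside a title naming mesaconate, at 250 mg/kg into the peritoneum 6 h before concanavalin A (ConA, a lectin of jack beans that stimulates T cells and injures the liver) at 20 mg/kg into the tail vein. ConA mice had the same lectin dose without MSA, and Control mice had phosphate-buffered saline into the tail vein. Livers were taken 12 h after ConA, no group had MSA without ConA, and the labels do not say whether a library holds 1 animal or a pool.

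The libraries held 13294600 to 17276391 counts, and those numbered 1 stood apart from those numbered 2 and 3. Xist, the RNA that female cells make from their silenced X chromosome, measured 0.13, 0.48 and 0.07 CPM (counts scaled to a common library total, with edgeR's TMM factors) in MSA_ConA 1, ConA 1 and Control 1, and 666 to 1130 CPM in the other 6 libraries. Nnt, of which C57BL/6J lacks several exons, ranged from 29.8 to 34.6 CPM in number 1 and from 168 to 266 CPM in the other 6 libraries, so sex and strain transcripts went against the labels of the libraries numbered 2 and 3. The clock genes Arntl and Dbp divided the libraries the same way, with 22.0 to 29.5 against 1.35 to 3.59 CPM for Arntl and 6.01 to 10.3 against 99.7 to 250 CPM for Dbp. Among the libraries numbered 1, the summed 18 acute-phase genes measured 257630 CPM in MSA_ConA 1, 196768 CPM in ConA 1 and 30353 CPM in Control 1, whereas all 6 libraries numbered 2 or 3 lay between 14267 and 19139 CPM. Totals over the 14 genes that mark skeletal muscle did not keep 1 order of groups within every library number. The total was 131 CPM for MSA_ConA 1, 377 CPM for MSA_ConA 2 and 5030 CPM for MSA_ConA 3. It was 8.04 CPM for ConA 1, 406 CPM for ConA 2 and 73.1 CPM for ConA 3. Control 1, 2 and 3 had 21.0, 3.75 and 1.45 CPM. ConA 1 thus lay below Control 1, and MSA_ConA 2 below ConA 2, while MSA_ConA 3 had the largest total. Of the 13 muscle markers tested, 13 had a higher fitted level in MSA_ConA than in ConA and 13 in ConA than in Control, and 0 were called in either comparison. Library, group and number are therefore named as labelled throughout, and each result is given over all libraries and by number.

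The promoters of 2 receptors are shown, chosen after their values were seen: Nr0b2 had the largest difference in ConA effect between the library numbers, and Nr1i3 was the only receptor lower in every library numbered 1. The first is the 250 bases before the Nr0b2 start at chr4:133553126-133553375, and the second is the 214 bases before the RefSeq start of the Nr1i3 gene at chr1:171213720-171213933, both on the plus strand of GRCm38.p6, from RefSeq. Capitals mark the E-box CACGTG, the site of CLOCK, BMAL1 and other bHLH factors, and TCAAGG, the core of the LRH-1 site.
Nr0b2: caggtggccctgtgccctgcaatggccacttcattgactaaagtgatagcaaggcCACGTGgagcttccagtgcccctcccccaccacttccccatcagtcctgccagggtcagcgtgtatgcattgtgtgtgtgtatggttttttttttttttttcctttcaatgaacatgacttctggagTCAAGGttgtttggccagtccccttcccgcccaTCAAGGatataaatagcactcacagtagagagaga
Nr1i3: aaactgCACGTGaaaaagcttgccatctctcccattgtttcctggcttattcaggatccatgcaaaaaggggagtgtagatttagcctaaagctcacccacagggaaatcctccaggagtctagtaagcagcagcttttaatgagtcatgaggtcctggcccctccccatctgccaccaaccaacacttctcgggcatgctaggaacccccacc
The Nr0b2 E-box begins 195 bases before the start and its TCAAGG copies 68 and 35 bases before it. The Nr1i3 E-box begins 208 bases before the start. Both strands of 12 windows of 250 bases for the 9 receptors were searched. CACGTG was found for 2 receptors, Nr0b2 and Nr1i3, and in 6.02% of all 32851 promoter windows of that length. TCAAGG was found for 1 receptor, Nr0b2, and in 12.5% of all windows. The nuclear receptor core hexamer AGGTCA was found for 3 receptors, Nr1h4, Nr5a2 and Rxra, and in 14% of all windows. The inverted repeat (0.00609% of all windows) and the direct repeat (0.0335%) of that hexamer with a spacer of 1 base, which contain it, and the D-box TTATGNAA (3.07%) were found in no window of the 9 receptors. These are matches of letters and not shown binding sites. The windows with the AGGTCA matches of Nr1h4 (chr10:89506659-89506908) and Rxra (chr2:27709042-27709291) lie inside the RefSeq bounds of those genes. Some receptors, such as Rxra, have more than a single window, while the shares over all promoters are per window.

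Compared per length, on the deposited FPKM scale (fragments scaled by gene length and library total, in the authors' normalisation), Rxra had the highest level of the 9 receptors at 77.0 ± 25.3 FPKM (SD, n = 9 libraries over all groups). It was followed by Nr1h4 at 52.6 ± 15.5, Nr1h3 at 47.5 ± 12.5, Nr0b2 at 41.8 ± 27.4 and Nr1i2 at 38.6 ± 22.5 FPKM. The lower levels were those of Ppara at 19.6 ± 8.37, Nr1i3 at 14.01 ± 5.37, Nr5a2 at 10.4 ± 3.95 and Rora at 4.04 ± 1.11 FPKM. In this order every receptor's mean lay less than its own SD above the next, except that of Nr5a2, which lay further above Rora. Nr1h3 exceeded Nr0b2 in 5 of 9 libraries and Nr5a2 exceeded Rora in 8 of 9, while each other neighbour pair kept its order in 6 or 7. Nr0b2 moved most in this order, holding rank 9 of 9 in MSA_ConA 1 and ConA 1, rank 2 in Control 1 and ranks 2 to 5 in the libraries numbered 2 and 3.

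**Figure D1:**
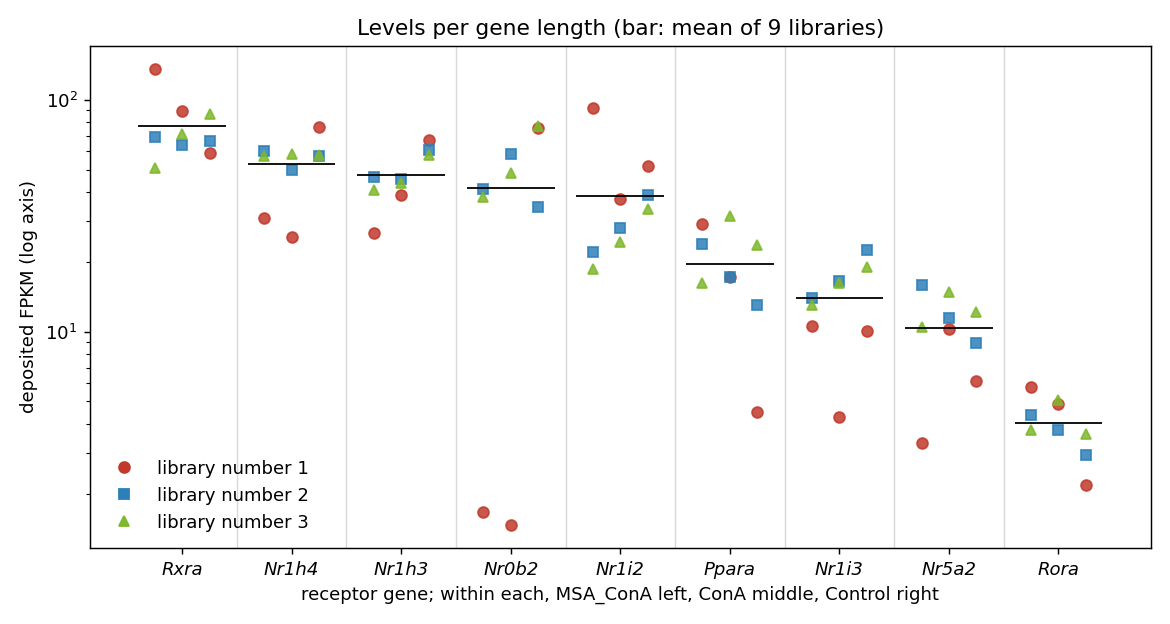
Deposited FPKM of the 9 receptors on a log axis, genes in order of their mean over all 9 libraries, with 1 point per library, coloured and shaped by library number, and MSA_ConA left, ConA in the middle and Control right within each gene. Bars are means of 9 libraries. The means run from 77.0 FPKM for Rxra to 4.04 FPKM for Rora, and the lowest Nr0b2 points are MSA_ConA 1 at 1.66 FPKM and ConA 1 at 1.46 FPKM.

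Whether ConA, or MSA before ConA, altered these receptors was tested over all genes. In edgeR's quasi-likelihood test with 3 groups, 0 of 9 receptors and 0% of the 14603 genes had a Benjamini-Hochberg adjusted p under 0.05 for ConA against Control, and the same was true of MSA_ConA against ConA (0%) and of MSA_ConA against Control (0%). At an unadjusted p under 0.05 the counts over all genes were 563, 248 and 730, in that order of comparisons, and among the receptors 0 (3.86% of all genes), 0 (1.7%) and 1 (5%), the last being Nr1h3. DESeq2 called 2, 0 and 55 genes and limma-voom 0, 0 and 0, with no receptor among them. Counting receptors whose groups did not overlap, ConA exceeded Control for 1 receptor, Rora (5.66% of all genes), and was below it for 2, Nr1h4 and Nr1h3 (6.64%). MSA_ConA exceeded Control for 1, Rora (6.44%), and was below it for 1, Nr1h3 (7.34%). On library totals Rora overlapped with Control in both comparisons, and Nr1h4 in that of ConA. Between MSA_ConA and ConA 0 receptors were separated upwards (2.33%) or downwards (2.54%).

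The same comparisons looked different by library number. The division by number was seen in earlier results of these data, so the calls along it are no independent evidence of that division. In the libraries numbered 2 and 3 alone, 0 of 9 receptors and 0% of 14851 genes were called for ConA against Control, for MSA_ConA against ConA (0%) or for MSA_ConA against Control (0%), with 1744, 783 and 3598 genes at an unadjusted p under 0.05. There the groups of 2 did not overlap for 1 receptor higher and 4 lower in ConA than in Control (23.6% and 23.8% of all genes), for 1 higher and 3 lower in MSA_ConA than in ConA (16.2% and 18.9%), and for 2 higher and 3 lower in MSA_ConA than in Control (27.5% and 27.6%). Among the single libraries numbered 1, at least 2-fold in CPM + 1, 2 receptors were higher and 3 lower in ConA 1 than in Control 1 (18.3% and 17.6% of all genes). For MSA_ConA 1 against ConA 1 these counts were 2 higher and 1 lower (11.5% and 15.3%), and for MSA_ConA 1 against Control 1 they were 3 higher and 3 lower (15.9% and 18.4%). The difference between the ConA effect in number 1 and that in numbers 2 and 3 was called for 3 receptors, all downwards (15.4% of all genes downwards and 31% in either direction). The matching difference in the MSA effect, MSA_ConA against ConA, was called for 2 receptors upwards (8.61%) and 1 downwards (10.1%, and 18.7% in either direction). Control 1 differed from Control 2 and 3 for 2 receptors, Nr1i3 and Ppara, both lower (15.7% downwards and 27.8% in either direction). Each count of receptors is read against the share of all genes beside it. In whole tissue, fewer cells of a type and less RNA per cell cannot be told apart. Scaling by library totals in place of TMM moved the median of all genes by -0.11 in MSA_ConA against Control, by -0.27 in the comparison within Control, by -0.54 in the ConA effect difference and by -0.27 in the MSA effect difference on the log2 scale. All values below are relative to the TMM scale. The fitted receptor directions that turn with library totals, none of them called, are listed in the closing section. Ratios of single libraries were not part of that list, and some of them turn as well. On library totals Nr1i3 measured 26.1 CPM in MSA_ConA 1 and 42.4 CPM in Control 1. Nr0b2 measured 1.05 CPM in MSA_ConA 1 and 1.11 CPM in ConA 1 on that scale. Both lie in the reverse order with TMM.

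**Figure D2:**
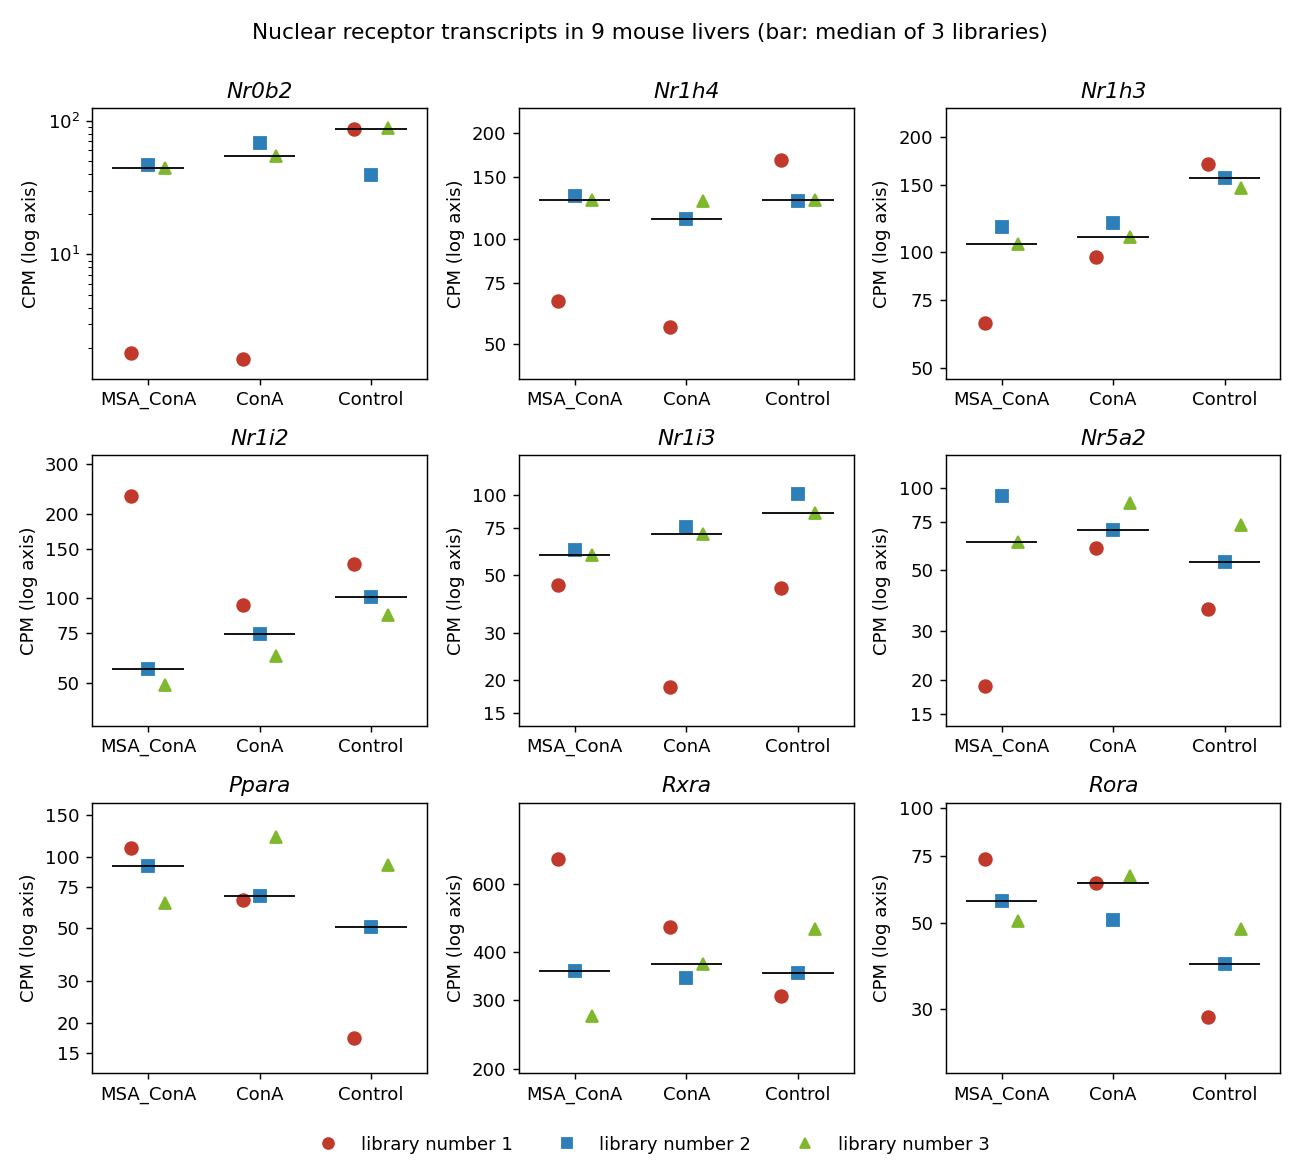
CPM of each receptor in every library on a log axis, 1 panel per gene, with MSA_ConA left, ConA in the middle and Control right, point shape giving the library number and a bar at the median of 3 libraries. Nr0b2 shows the widest gap, with MSA_ConA 1 and ConA 1 at 1.84 and 1.65 CPM and every other library at 39.5 CPM or more.

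Nr0b2, the bile acid-induced repressor, was lowest in the 2 lectin-treated libraries numbered 1. It measured 1.84, 46.6 and 44.4 CPM in MSA_ConA libraries 1, 2 and 3, against 1.65, 68.6 and 54.8 CPM in ConA 1, 2 and 3 and 86.3, 39.5 and 88.4 CPM in Control 1, 2 and 3. The 2 lowest values stood on 14 counts in MSA_ConA 1 and 17 counts in ConA 1, against 1159 counts in Control 1, and no other library lay below 39.5 CPM. ConA 1 was 52.4-fold lower than Control 1 (95% exact interval 32.6 to 90.2) and MSA_ConA 1 was 46.8-fold lower than Control 1 (27.8 to 85.9). Intervals of single libraries cover counting error only, not the spread between animals or the choice of scaling. Over all libraries the groups overlapped, and the log2 fold change was -0.77 ± 1.22 (SE) for ConA against Control, with an adjusted p of 0.9997 in edgeR's quasi-likelihood test with Benjamini-Hochberg adjustment. In numbers 2 and 3 alone it was -0.05 ± 0.32, with an adjusted p of 0.959. The difference between the ConA effect in number 1 and that in numbers 2 and 3 was -5.65 ± 0.73 on the log2 scale (adjusted p = 0.00221), in a fit with a mean for each group and number class and 3 residual degrees of freedom, where the lone library numbered 1 of a group is assumed to vary like the others. It ranged from -6.37 to -5.20 when a library numbered 2 or 3 was left out.

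Nr1h4, the receptor that induces Nr0b2, was lower in the same 2 libraries by a smaller amount. It measured 66.6, 132 and 129 CPM in MSA_ConA, 55.8, 114 and 128 CPM in ConA and 168, 128 and 129 CPM in Control. All ConA libraries lay below all Control libraries, though ConA 3 at 127.96 CPM and Control 2 at 128.34 CPM nearly met, and MSA_ConA overlapped with Control. ConA 1 was 3.02-fold lower than Control 1 (2.75 to 3.31) and MSA_ConA 1 was 2.53-fold lower than Control 1 (2.29 to 2.79). For ConA against Control the log2 fold change was -0.52 ± 0.41 over all libraries and -0.09 ± 0.14 in numbers 2 and 3 alone, with adjusted p-values of 0.9997 and 0.788. The ConA effect differed between number 1 and numbers 2 and 3 by -1.50 ± 0.24 (adjusted p = 0.00477).

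Nr5a2, the activator that SHP represses, was lowest in MSA_ConA 1 and did not share the loss of Nr0b2 in ConA 1. It measured 19.1, 93.4 and 63.5 CPM in MSA_ConA, 60.2, 69.9 and 87.7 CPM in ConA and 36.3, 53.5 and 73.1 CPM in Control. MSA_ConA 1 was the lowest of the 9 and MSA_ConA 2 the highest, so the groups overlapped in every comparison. MSA_ConA 1 was 3.15-fold lower than ConA 1 (2.63 to 3.80). Over all libraries the log2 fold change of MSA_ConA against ConA was -0.31 ± 0.53, and -0.0023 ± 0.24 in numbers 2 and 3 alone. The MSA effect differed by -1.65 ± 0.44 between number 1 and numbers 2 and 3 (adjusted p = 0.0395). This call was lost, with adjusted p-values of 0.0510 to 0.0906, without Control 2, Control 3, ConA 2, ConA 3 or MSA_ConA 2, each left out alone, and the difference then ranged from -1.82 to -1.35.

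Nr1h3, the oxysterol receptor, was the receptor whose level was below Control in all 6 lectin-treated libraries. It measured 65.6, 116 and 105 CPM in MSA_ConA, 97.4, 119 and 110 CPM in ConA and 170, 156 and 148 CPM in Control. Every lectin-treated library lay below every Control library, in number 1 as in numbers 2 and 3, while MSA_ConA and ConA overlapped. The means were 95.8 ± 26.7 CPM in MSA_ConA, 109 ± 11.02 CPM in ConA libraries and 158 ± 11.1 CPM in Control libraries (SD, n = 3 each). The log2 fold change was -0.72 ± 0.31 for MSA_ConA against Control, with an unadjusted p of 0.0442 in edgeR and an adjusted p of 0.937. For ConA against Control it was -0.53 ± 0.31 (adjusted p = 0.9997). In numbers 2 and 3 alone it was -0.45 ± 0.14 for MSA_ConA against Control (adjusted p = 0.123) and -0.41 ± 0.14 for ConA against Control (adjusted p = 0.423), and the ConA effect did not differ past the threshold between the number classes (-0.40 ± 0.24, adjusted p = 0.249). ConA 1 was 1.74-fold lower than Control 1 (1.62 to 1.88) and MSA_ConA 1 was 2.58-fold lower than Control 1 (2.35 to 2.85).

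Nr1i2, the drug sensor PXR, was highest in MSA_ConA 1 and lowest in MSA_ConA 3. It measured 230, 56.1 and 49.2 CPM in MSA_ConA, 94.6, 74.4 and 62.2 CPM in ConA and 133, 101 and 87.4 CPM in Control. MSA_ConA 1 exceeded every other library, whereas MSA_ConA 2 and 3 lay below every other library. MSA_ConA 1 was 2.44-fold higher than ConA 1 (2.25 to 2.64). For MSA_ConA against Control the log2 fold change was 0.06 ± 0.58 over all libraries and -0.83 ± 0.16 in numbers 2 and 3 alone. There its unadjusted p was 0.000966 and its adjusted p 0.0829 in edgeR's quasi-likelihood test. That adjusted p was the smallest over all genes but is a tied value, and does not make Nr1i2 the first-ranked gene. In that comparison 3598 genes had an unadjusted p under 0.05. The MSA effect was 1.66 ± 0.28 higher in number 1 than in numbers 2 and 3 (adjusted p = 0.00995). That of ConA differed by -0.03 ± 0.28 (adjusted p = 0.959).

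Nr1i3, the companion sensor CAR, was lower in every library numbered 1 than in any library numbered 2 or 3, the only receptor divided in this way (1 of 9 downwards, against 19.2% of all genes, and 0 of 9 upwards, against 14.8%). It measured 45.7, 61.8 and 59.3 CPM in MSA_ConA, 18.8, 75.4 and 71.4 CPM in ConA and 44.6, 101 and 85.2 CPM in Control. ConA 1 held the lowest value of the 9, and among numbers 2 and 3 MSA_ConA lay below ConA and ConA below Control without overlap. ConA 1 was 2.37-fold lower than Control 1 (2.01 to 2.80), MSA_ConA 1 was 2.43-fold higher than ConA 1 (2.03 to 2.91), and MSA_ConA 1 was 1.02 times Control 1 (0.895 to 1.17). Control 1 was below Control 2 and 3 by a log2 difference of -1.06 ± 0.18 (adjusted p = 0.00814). The ConA effect was lower in number 1 than in numbers 2 and 3 by -0.90 ± 0.26 (adjusted p = 0.0339), and the MSA effect was higher by 1.56 ± 0.26 (adjusted p = 0.00894). The first of these was lost, with adjusted p-values of 0.0506 to 0.0799, without Control 3, ConA 2, ConA 3, MSA_ConA 2 or MSA_ConA 3, each left out alone, and the difference then ranged from -0.96 to -0.81. In numbers 2 and 3 alone, MSA_ConA against Control was -0.62 ± 0.15 (adjusted p = 0.0856), ConA against Control -0.35 ± 0.15 (adjusted p = 0.423) and MSA_ConA against ConA -0.27 ± 0.15 (adjusted p = 0.929).

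Ppara, the fatty acid receptor, had its lowest level in Control 1. It measured 109, 91.8 and 64.1 CPM in MSA_ConA, 65.9, 68.6 and 121 CPM in ConA and 17.3, 50.5 and 92.1 CPM in Control. The groups overlapped, since Control 3 exceeded 4 of the 6 lectin-treated libraries. ConA 1 was 3.81-fold higher than Control 1 (3.28 to 4.45) and MSA_ConA 1 was 6.31-fold higher than Control 1 (5.44 to 7.33). Over all libraries the log2 fold change was 0.73 ± 0.56 for MSA_ConA against Control and 0.68 ± 0.56 for ConA against Control (adjusted p = 0.958 and 0.9997). Control 1 was below Control 2 and 3 by -2.04 ± 0.50 (adjusted p = 0.0229), a call that was lost without Control 3 (-1.53, adjusted p = 0.104). Without that library Nr0b2 was called in its place (1.14, higher in Control 1, adjusted p = 0.0375), and 1340 genes were called, against 4062 with all libraries. The ConA effect differed by 1.52 ± 0.64 between the number classes, which did not pass the threshold (adjusted p = 0.11).

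Rxra, the shared partner, measured 693, 358 and 273 CPM in MSA_ConA, 465, 343 and 372 CPM in ConA and 307, 352 and 457 CPM in Control. MSA_ConA 1 was the highest of the 9 and MSA_ConA 3 the lowest, so all groups overlapped. MSA_ConA 1 was 2.25-fold higher than Control 1 (2.16 to 2.35) and ConA 1 was 1.51-fold higher than Control 1 (1.45 to 1.58). Over all libraries the log2 fold change was 0.25 ± 0.41 for MSA_ConA against Control and 0.08 ± 0.41 for ConA against Control. In numbers 2 and 3 alone these were -0.35 ± 0.19 and -0.18 ± 0.19, with no adjusted p below 0.302.

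Rora, the clock-linked receptor, was the receptor that lay above Control in all 6 lectin-treated libraries on the TMM scale. It measured 73.6, 57.2 and 50.6 CPM in MSA_ConA, 63.7, 51.0 and 66.3 CPM in ConA and 28.6, 39.2 and 48.3 CPM in Control. Every lectin-treated library exceeded every Control library, MSA_ConA 3 and Control 3 being the nearest pair. The means were 60.5 ± 11.8 CPM in MSA_ConA, 60.3 ± 8.22 CPM in ConA libraries and 38.7 ± 9.85 CPM in Control libraries (SD, n = 3 each). The log2 fold change was 0.64 ± 0.30 for either comparison with Control (adjusted p = 0.937 for MSA_ConA and 0.9997 for ConA). In numbers 2 and 3 alone it was 0.31 ± 0.18 for MSA_ConA and 0.43 ± 0.18 for ConA. ConA 1 was 2.23-fold higher than Control 1 (1.96 to 2.53).

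**Figure D3:**
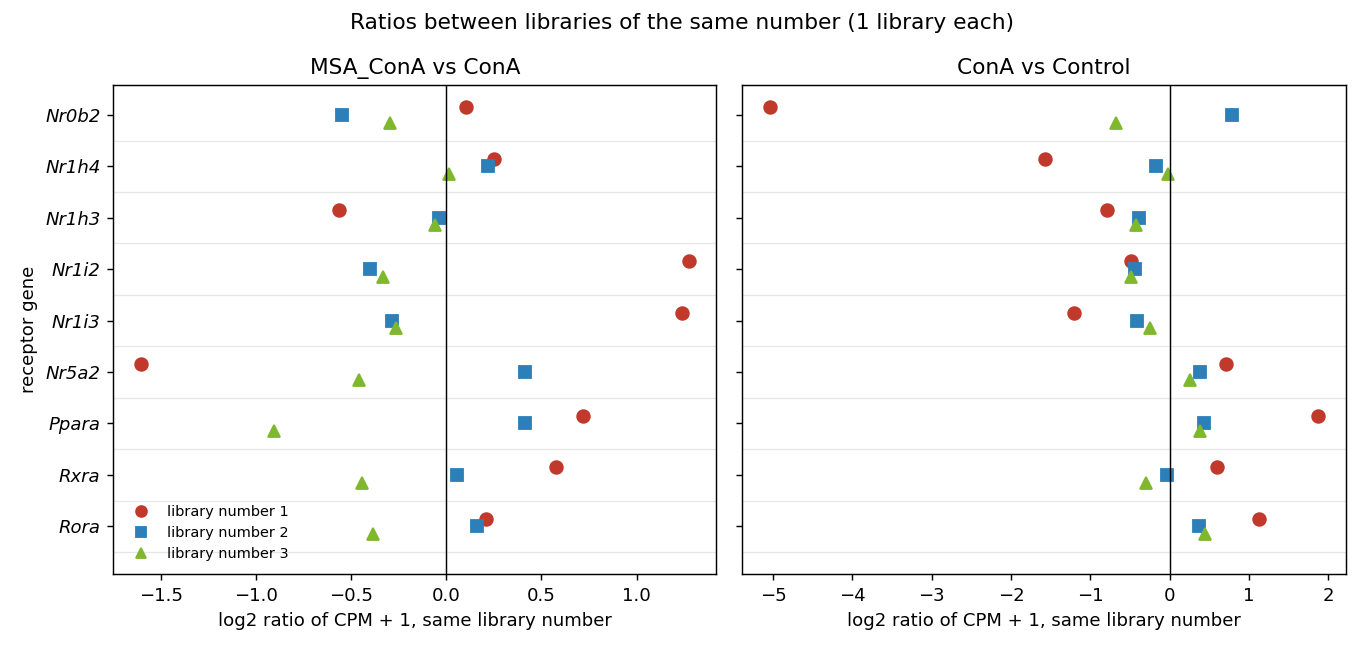
Log2 ratio of CPM + 1 for each receptor in MSA_ConA against ConA and in ConA against Control, computed within each library number, with 1 point per number, each a ratio of 2 single libraries. For Nr0b2 in ConA against Control the number 1 point lies far below the rest, and for Nr1i2 and Nr1i3 in MSA_ConA against ConA it lies above 0 while both others lie below.

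The targets of these receptors were read from lists drawn up from general knowledge. In the 3-group test 0 genes of any target list were called in any comparison. In the difference of the ConA effect between number 1 and numbers 2 and 3 (15.6% of all genes upwards, 15.4% downwards), 1 of 11 tested FXR targets and SHP-repressed genes was called upwards and 4 downwards, with a list median log2 difference of -0.24 against -0.09 over all genes. The 4 were Cyp7a1, the SHP-repressed enzyme that sets the rate of bile acid synthesis, Abcb11, the FXR-induced bile salt export pump, Slc10a1, the bile salt uptake carrier, and Abcc2, an export pump of conjugates. Cyp7a1 measured 3.16, 1003 and 852 CPM in MSA_ConA, 6.11, 607 and 503 CPM in ConA and 51.0, 438 and 548 CPM in Control, so that its 3 lowest values were the libraries numbered 1, Control included. Its ConA effect was lower in number 1 by -3.23 ± 0.36 (adjusted p = 0.0013) and Control 1 was below Control 2 and 3 by -3.27 ± 0.27 (adjusted p = 0.000847). In ConA 1, then, Cyp7a1 and its repressor Nr0b2 were both far below their Control 1 levels, Cyp7a1 by 8.35-fold (6.45 to 10.99). Abcb11 measured 156, 675 and 421 CPM in MSA_ConA, 190, 540 and 626 CPM in ConA and 908, 423 and 585 CPM in Control, with the same 2 libraries lowest as for Nr0b2 (ConA effect difference -2.47 ± 0.46, adjusted p = 0.00812). Abcb11, Slc10a1 (-1.46 ± 0.30) and Abcc2 (-1.16 ± 0.33) are named after their values were seen. Slc51b, a subunit of the basolateral bile acid exporter, had 4 to 26 counts in every library. Osgin1, the gene called upwards, measured 166 CPM in MSA_ConA 1, 2659 CPM in ConA 1 and 663 CPM in Control 1, and 50.1 to 146 CPM in the other libraries.

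Of the 13 LXR targets, 2 were called upwards and 1 downwards in that difference (median -0.37). Abca1, the cholesterol efflux pump, measured 960, 259 and 221 CPM in MSA_ConA, 510, 216 and 241 CPM in ConA and 94.7, 128 and 182 CPM in Control. All 6 lectin-treated libraries exceeded all Controls, the reverse of the order seen for the receptor Nr1h3, and the log2 fold change of ConA against Control was 1.26 ± 0.64 (adjusted p = 0.9997). Rgs16, a regulator of G-protein signalling, measured 202, 44.3 and 42.5 CPM in MSA_ConA, 501, 51.5 and 62.8 CPM in ConA and 2.23, 12.6 and 49.1 CPM in Control. Of the 14 PXR and CAR targets, 3 were called upwards and 4 downwards (median -0.16). Por, the electron donor of the cytochromes P450, measured 1770 CPM in MSA_ConA 1, 1144 CPM in ConA 1 and 256 CPM in Control 1, and 241 to 450 CPM in the others (difference 2.71 ± 0.31, adjusted p = 0.00143). Sult2a8, a sulfotransferase, had a difference in the other direction, with 353 CPM in MSA_ConA 1, 183 CPM in ConA 1 and 667 CPM in Control 1 (difference -2.21 ± 0.42, adjusted p = 0.00861). Gstm3 and Cyp2c55 had the smallest p-values of that list in the 3-group test of ConA against Control, at log2 fold changes of -1.60 ± 1.19 and -1.72 ± 0.98 and an adjusted p of 0.9997.

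Of the 18 PPAR-alpha targets, 6 were called upwards and 2 downwards in the ConA effect difference, with a median of 0.36. Angptl4, a secreted inhibitor of lipoprotein lipase, measured 566, 18.8 and 22.9 CPM in MSA_ConA, 576, 25.8 and 26.3 CPM in ConA and 55.5, 34.8 and 31.2 CPM in Control. Plin2, the lipid droplet coat protein, measured 2617, 323 and 321 CPM in MSA_ConA, 1815, 274 and 243 CPM in ConA and 351, 357 and 325 CPM in Control. Both were high in the 2 lectin-treated libraries numbered 1, where Ppara exceeded Control 1 too (differences 3.71 ± 0.28 and 2.77 ± 0.27, adjusted p = 0.000337 and 0.000891). Fabp1, the fatty acid carrier, did not share this, with 6697 CPM in MSA_ConA 1, 1462 CPM in ConA 1 and 5772 CPM in Control 1. Pdk4, which spares glucose in fasting, measured 500, 13.1 and 96.2 CPM in MSA_ConA, 384, 13.1 and 6.64 CPM in ConA and 6.25, 2.71 and 4.31 CPM in Control, a log2 fold change of 4.92 ± 1.78 for ConA against Control (adjusted p = 0.9997). In the MSA effect difference (8.61% of all genes upwards, 10.1% downwards) 6 PPAR-alpha targets were called upwards and 0 downwards, with a median of 0.49 against -0.01 over all genes. For the other lists these counts were 0 and 2 for FXR targets and SHP-repressed genes, 2 and 1 for LXR targets and 1 and 0 for PXR and CAR targets. They were 0 and 0 for ROR response element genes and 1 and 1 for LRH-1 targets.

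Of the 10 ROR response element genes, a list that shares members with the clock genes, 3 were called upwards and 0 downwards in the ConA effect difference (median 0.21), and in Control 6 were called higher and 1 lower in number 1 than in numbers 2 and 3 (12.1% and 15.7% of all genes). Nfil3, a clock output repressor, measured 568 CPM in MSA_ConA 1, 486 CPM in ConA 1 and 29.6 CPM in Control 1, against 8.39 to 15.6 CPM elsewhere. E2f8, a cell cycle repressor, measured 42.3 CPM in MSA_ConA 1, 31.1 CPM in ConA 1 and 5.29 CPM in Control 1. Clock measured 17.4, 31.4 and 28.9 CPM in MSA_ConA, 17.9, 23.9 and 27.5 CPM in ConA and 14.7, 11.7 and 19.9 CPM in Control. Of the 10 LRH-1 targets, which share Cyp7a1 and Cyp8b1 with the FXR list, 3 were called upwards and 1 downwards (median 0.98). Plk3, a stress-response kinase, measured 1123 CPM in MSA_ConA 1, 1997 CPM in ConA 1 and 102 CPM in Control 1.

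**Figure D4:**
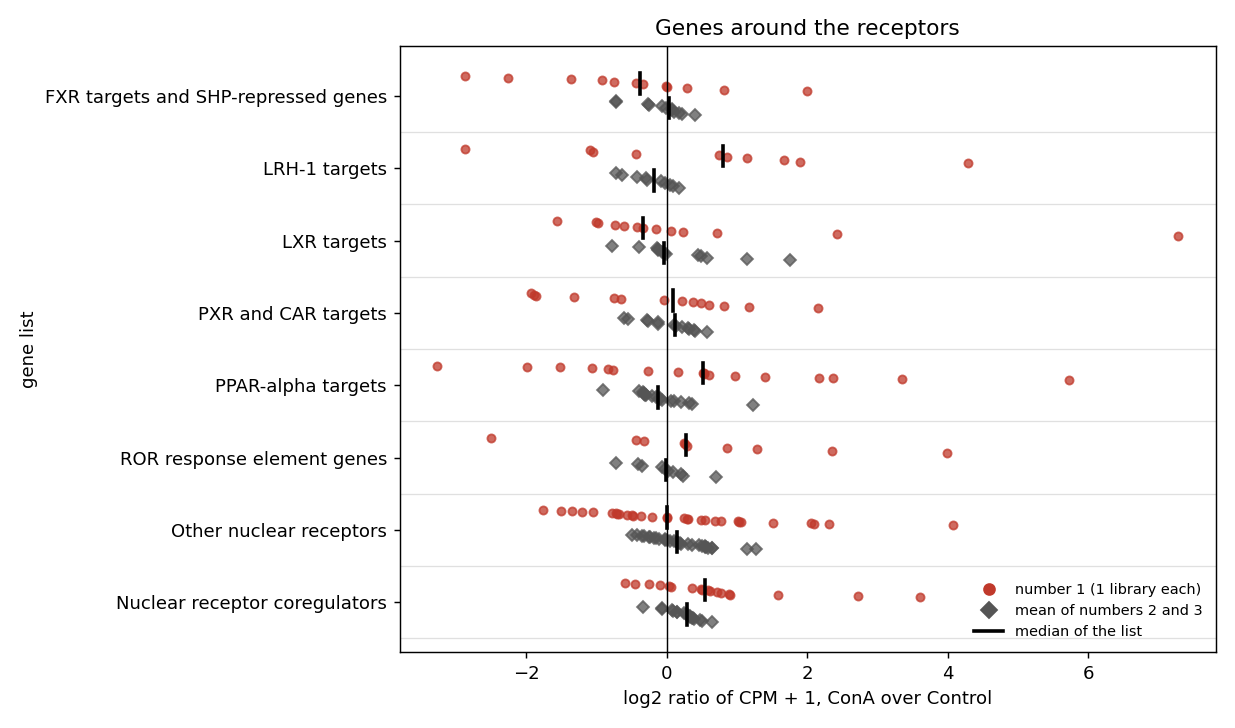
Log2 ratio of CPM + 1 in ConA against Control for each gene of 8 lists, with number 1 (circles, a ratio of single libraries) above the mean of numbers 2 and 3 (diamonds) and a bar at each median. The number 1 medians run from -0.38 for the mixed list of FXR targets and SHP-repressed genes to 0.80 for LRH-1 targets. Those of numbers 2 and 3 run from -0.18 for LRH-1 targets to 0.29 for coregulators.

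Among 28 other nuclear receptors tested, the median ConA effect difference was -0.23, against -0.09 over all genes, with 13 higher and 15 lower. Nr1h2, the widely expressed LXR-beta, measured 228, 34.9 and 29.9 CPM in MSA_ConA, 200, 42.2 and 41.4 CPM in ConA and 69.8, 54.9 and 50.5 CPM in Control (1.85 ± 0.25, adjusted p = 0.00272), so that Nr1h2 lay above Control 1 in both lectin-treated libraries numbered 1, where Nr1h3 lay below it. Nr2f2, COUP-TFII, measured 8.30 CPM in MSA_ConA 1, 4.36 CPM in ConA 1 and 17.1 CPM in Control 1, against 35.7 to 45.4 CPM elsewhere (-2.08 ± 0.30, adjusted p = 0.00329). The immediate early receptors Nr4a3 and Nr4a1 had the smallest p-values of this list for ConA against Control (unadjusted p = 0.00126 and 0.0407, adjusted p = 0.9997 for both in edgeR). Nr4a3 had 8, 5 and 11 counts in MSA_ConA, 34, 61 and 4 counts in ConA and 0, 1 and 0 counts in Control. Nr4a1 measured 34.6, 0.55 and 4.12 CPM in MSA_ConA, 56.98, 13.8 and 0.74 CPM in ConA and 2.46, 1.15 and 1.04 CPM in Control. The 18 coregulators had a median ConA effect difference of 0.26, with 13 higher and 5 lower. Nrip1, the corepressor RIP140, measured 29.8, 19.5 and 17.7 CPM in MSA_ConA, 50.2, 15.5 and 19.6 CPM in ConA and 3.20, 9.60 and 12.2 CPM in Control, with every lectin-treated library above every Control. Lpin1, a coactivator of PPAR-alpha, measured 574, 19.8 and 34.1 CPM in MSA_ConA, 153, 22.9 and 27.0 CPM in ConA and 22.4, 19.0 and 15.5 CPM in Control (ConA effect difference 2.24 ± 0.46, adjusted p = 0.0113).

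By distance between log2(CPM + 1) profiles over the 9 libraries, each centred on its own mean, the 2 closest receptors were Nr1h4 and Nr1h3 at a root mean square distance of 0.31, followed by Rxra and Rora at 0.34. Nr0b2 was at least 1.43 from every other receptor, Nr1h4 being its nearest. Among 8143 genes of at least 10 CPM on average, the profile nearest to that of Nr0b2 was Anks4b at 0.38, then Paqr7 at 0.44 and D630039A03Rik at 0.45. The nearest profiles were Glyat, Lonp2 and Akr1e1 for Nr1h4, Nup85, Tyk2 and Btbd2 for Nr1h3, Mrpl41, Gchfr and Rp9 for Nr1i2, and Tm6sf2, Fads1 and Slc25a11 for Nr1i3. They were Adgrl2, Tspyl1 and Tmem55a for Nr5a2, Usp9x, Erbin and Man2a1 for Ppara, Pcdh1, Zfand3 and Tmbim6 for Rxra, and Setd2, Fbxo38 and Ipo5 for Rora. The smallest distance was 0.07, between Rora and Setd2, and all 9 profiles share the libraries and their division by number.

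Markers of other cell types and of the injury response moved with several of these values. Hepatocyte markers were abundant in every library: 10 of them summed to 101476 to 142141 CPM in MSA_ConA, 91054 to 115822 CPM in ConA and 99994.5 to 124665 CPM in Control, with Alb at 64209 CPM or more in each. In MSA_ConA 1 and ConA 1, where Nr0b2 and Nr1h4 were lowest, these sums were 142141 and 91054 CPM. On the TMM scale they thus lay on either side of the 112786 CPM of Control 1. As a share of library totals, Alb made up 5.37% of MSA_ConA 1 and 4.32% of ConA 1, both below the 7.28% of Control 1. The 12 interferon and NF-kappa-B response genes summed to 134 to 1108 CPM in MSA_ConA, 143 to 16721 CPM in ConA and 152 to 188 CPM in Control, with both maxima in number 1, and Cxcl10 measured 2.63 CPM in MSA_ConA 1, 3511 CPM in ConA 1 and 13.8 CPM in Control 1. Nr0b2 stood on 14 counts in MSA_ConA 1 and 17 counts in ConA 1. The 12 response genes summed to 1108 and 16721 CPM in those libraries, against 188 CPM in Control 1. By gene the 2 libraries were unlike. In ConA 1 the median log2 ratio of CPM + 1 over Control 1 was 6.51, with 11 genes at least 2-fold higher and 0 lower. In MSA_ConA 1 it was 0.18, with 5 at least 2-fold higher and 3 lower. How Nr0b2 relates to these genes or to the acute-phase genes was not tested. The 8 monocyte and neutrophil markers summed to 11.1 to 73.0 CPM in MSA_ConA, 9.99 to 442 CPM in ConA and 11.3 to 19.1 CPM in Control. The 12 Kupffer cell markers summed to 293 to 642 CPM, 434 to 548 CPM and 571 to 738 CPM in the same order of groups. The 12 T and NK cell markers summed to 4.08 to 6.95, 5.33 to 43.7 and 6.08 to 8.26 CPM. The 43.7 CPM was that of ConA 1, where 3 of the 12 were at least 2-fold above Control 1 in CPM + 1. The median log2 ratio of the 12 there was -0.14, so the sum does not stand for the list. The part of the cell types named, of the skeletal muscle markers, of the response genes, and of sex, strain and clock in the receptor values was not tested.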

How the data were processed

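For the 9 liver libraries the authors deposited whole-number counts by gene, not normalised, and FPKM values. Per the labels' protocols, RNA was extracted with Trizol and libraries were built with an Illumina kit. Per the submitters' processing notes, Bowtie 0.12.2 is listed as a tool and mm8 and mm10 as builds, without their roles. The counting tool is not given in the sources used here. Each deposited FPKM value on a count of at least 10 equalled the count divided by gene length and 1 effective total per library (100% of such values in all 9 libraries, within a relative tolerance of 1e-06). Libraries were grouped by title, and the columns whose headers start with M were assigned to MSA_ConA by that initial.

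Counts were tested with edgeR 4.0.16 in R 4.3.3 (quasi-likelihood test, default expression filter by group, TMM factors computed after it, all 9 libraries in 1 fit, 6 residual degrees of freedom, Benjamini-Hochberg adjustment over the 14603 genes kept). CPM values are scaled by the same factors. Number 1 was compared with numbers 2 and 3 in a fit of 6 means with 3 residual degrees of freedom. Single libraries were compared as ratios with exact binomial 95% intervals, which cover counting error only. In the libraries, 3 counts equalled 0.154 to 0.395 CPM. Scripts were tested on simulated counts.

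Other settings tried were limma-voom (limma 3.58.1), DESeq2 1.42.0, limma on log2(FPKM + 1) and log2(FPKM + 0.1), relative log expression factors or library totals, TMM without the 20 most counted genes, a filter of 1 CPM or more in 3 or more libraries or none, only the groups compared, a block for the library number, a block for number 1, only number 1, only numbers 2 and 3, an adjusted p under 0.01, a log2 fold change past 1 in size, and leaving out each library. Figures were drawn with matplotlib 3.10.9.

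The members and lists were chosen with earlier results of these data known, and so was the division into number 1 and numbers 2 and 3. Named genes are the 9 receptors, the 2 genes of each target, receptor or coregulator list with the smallest p for ConA against Control, the 2 with the smallest p for the ConA effect difference, and the 3 nearest profiles of each receptor. A gene that this rule names is not reported here. Alb, Arntl, Dbp, Xist, Nnt and Cxcl10 were named beside results they move with. Same-numbered libraries deviated together from their group means (r between 0.489 and 0.720 within number 1, 0.364 and 0.575 within number 2, and 0.337 and 0.493 within number 3). Between numbers 2 and 3 r was 0.332 to 0.706, a range that spans those within number 2 and within number 3. These values set number 1 apart and do not show that numbers 2 and 3 pair libraries. The main test used group alone, and the block for the library number was run as another setting. Replicates of a group differed beyond counting noise (chi-square per degree of freedom of 19.1 to 539), so none was treated as a duplicate. The labels do not say whether libraries came from separate animals, so a p-value here reflects only how far these libraries spread, which may be technical.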

Additional observations from a re-analysis of the deposited data

Results flagged for a closer look

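The ConA effect differed between the library numbered 1 and those numbered 2 and 3 for 3 of the 9 receptors in edgeR's test of that difference, which called 31% of all genes. The log2 difference was -5.65 for Nr0b2 (adjusted p = 0.00221), -1.50 for Nr1h4 (adjusted p = 0.00477) and -0.90 for Nr1i3 (adjusted p = 0.0339). The MSA effect, MSA_ConA against ConA, differed in the same way for 3 of the 9, where 18.7% of all genes were called: by 1.66 for Nr1i2 (adjusted p = 0.00995), by 1.56 for Nr1i3 (adjusted p = 0.00894) and by -1.65 for Nr5a2 (adjusted p = 0.0395). The Nr1i3 difference in the ConA effect and the Nr5a2 difference in the MSA effect were not past the threshold in limma-voom (adjusted p = 0.0515 and 0.0688). With 1 library left out, each was lost in 5 fits, with adjusted p-values of 0.0506 to 0.0799 for Nr1i3 and 0.0510 to 0.0906 for Nr5a2. In each of these tests the side of number 1 rests on 1 library per group, and the library numbers also divide sex, strain and clock transcripts, so the parts of these cannot be told apart. The division by number had itself been seen in these data before it was tested.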

How the results depend on the processing

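No receptor was called in a comparison of the 3 groups under any setting run. Over all genes DESeq2 called 2 genes for ConA against Control and 55 for MSA_ConA against Control, where edgeR called 0. Limma-voom called 1623 genes for the MSA effect difference, against 2726. At an adjusted p under 0.01, 1334 genes and 1 receptor differed within Control, and 1864 and 783 genes in the ConA and MSA effect differences, since the threshold is stricter. With library totals 5 receptors differed within Control, against 2, the 3 added being Nr5a2 (-1.07), Rxra (-0.66) and Rora (-0.88). That scaling moved the median of all genes there by -0.27 and called 1036 genes higher and 3632 lower, against 1774 and 2288 with TMM, and the added calls are not read as results about the receptors. It called 1325 higher and 4159 lower in the ConA effect difference, against 2284 and 2250, and 762 and 2044 in the MSA effect difference, against 1257 and 1469. With 1 library left out, 1340 (without Control 3) to 4238 genes were called within Control, 3068 to 4659 in the ConA effect difference and 1368 (without ConA 3) to 2403 in the MSA effect difference, with 1631 without ConA 2. In limma-voom the differences of Nr1i3 (ConA, adjusted p = 0.0515) and Nr5a2 (MSA, adjusted p = 0.0688) were not past the threshold. At an adjusted p under 0.01 Ppara within Control, Nr1i3 in the ConA effect difference and Nr5a2 in the MSA effect difference were no longer called. Nr1h3 was called in the ConA effect difference with library totals (-0.94, adjusted p = 0.0194), and without a filter Nr5a2 was called within Control (-0.85, adjusted p = 0.0368) and Ppara in the ConA effect difference (1.45, adjusted p = 0.0419). The cause of these shifts was not tested.

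The replicate block for the library number called 0 genes in each comparison and changed no call (637, 129 and 1097 genes at an unadjusted p under 0.05 for ConA against Control, MSA_ConA against ConA and MSA_ConA against Control). With it the log2 fold changes for MSA_ConA against Control turned to -0.23 for Nr1i2 and -0.025 for Nr5a2, and with a block for number 1 to -0.23 and -0.026.

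Other directions that turned were all of uncalled values. For ConA against Control, Rxra was -0.070 with library totals and -0.18 in numbers 2 and 3. For MSA_ConA against ConA, library totals gave -0.10 for Nr1i3, -0.095 for Ppara and -0.068 for Rora. Rora was -0.0073 in limma-voom, -0.0089 without a filter and -0.0061 with TMM without the top 20 genes, and Nr1i3 was -0.016 without a filter. Numbers 2 and 3 gave -0.37 for Nr1i2, -0.27 for Nr1i3, -0.28 for Ppara, -0.18 for Rxra and -0.12 for Rora, and number 1 gave 0.16 for Nr0b2. For MSA_ConA against Control, Nr1i2 was -0.40 with library totals, -0.29 in limma-voom, -0.28 on log2(FPKM + 0.1), -0.26 on log2(FPKM + 1) and -0.83 in numbers 2 and 3. Nr5a2 was -0.079 in limma-voom, -0.089 on log2(FPKM + 0.1), -0.055 on log2(FPKM + 1) and -0.93 in number 1. Rxra was -0.068 with library totals and -0.35 in numbers 2 and 3, Nr1h4 was 0.027 in numbers 2 and 3, and Nr1i3 was 0.035 in number 1. Library totals also gave -0.11 for Nr1h3 within Control, -0.14 for Nr5a2 in the ConA effect difference and -0.14 for Nr1h4 in the MSA effect difference.

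With 1 library left out, MSA_ConA against ConA ranged from -0.99 to 0.13 for Nr0b2, -0.15 to 0.40 for Nr1h4, -0.36 to 0.026 for Nr1h3, -0.55 to 0.88 for Nr1i2, -0.41 to 0.30 for Nr1i3, -0.81 to 0.11 for Nr5a2, -0.13 to 0.39 for Ppara, -0.32 to 0.41 for Rxra and -0.16 to 0.11 for Rora. MSA_ConA against Control ranged from -1.03 to 0.40 for Nr1i2, -0.40 to 0.53 for Nr5a2 and -0.24 to 0.48 for Rxra. ConA against Control ranged from -0.059 to 0.23 for Rxra, the number 1 difference within Control from -0.039 to 1.14 for Nr0b2, and the ConA effect difference from -0.17 to 0.090 for Nr1i2.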

Other observations

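Genes of the injury response also differed in their ConA effect between the library numbers, and clock genes differed within Control. The 16 clock genes had a median log2 value of -0.03 in the ConA effect difference, against -0.09 over all genes, with 8 higher and 8 lower. Within Control their median was -1.70, against -0.05 over all genes. The median ConA effect difference was 2.91 for the 18 acute-phase genes and 6.91 for the 12 interferon and NF-kappa-B response genes. In the MSA effect difference the median of those 12 was -6.62, against -0.01 over all genes. The 8 cholangiocyte markers summed to 50.2 to 117 CPM in MSA_ConA, 58.3 to 789 CPM in ConA and 52.1 to 62.7 CPM in Control. The 9 sinusoidal endothelial markers summed to 195 to 455 CPM in MSA_ConA, 225 to 384 CPM in ConA and 352 to 449 CPM in Control, and the 9 stellate cell markers to 393 to 851 CPM, 498 to 778 CPM and 438 to 557 CPM in the same order of groups. The 7 B and plasma cell markers summed to 16.7 to 20.1 CPM in MSA_ConA, 12.6 to 17.4 CPM in ConA and 16.2 to 27.0 CPM in Control. The 10 adipocyte markers summed to 1161 to 4242 CPM, 1541 to 3655 CPM and 3220.0 to 3595 CPM in that order. A few abundant members carried the adipocyte sums, since 5 of the 10 had 0 counts in Control 1 and in Control 3. The median log2(CPM + 1) of the 10 was 1.76, 0.39 and 3.40 in MSA_ConA 1, 2 and 3. It was 0.73, 3.08 and 0.56 in ConA and 0.34, 0.75 and 0.04 in Control, by number.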
